A study of Rattus norvegicus with 24 samples.

Results

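Arc, Npas4, Homer1 and Nptx2 are activity-regulated genes of neurons whose products act at or for synapses, and their mRNA was described here in cultured rat striatal neurons given a D1 dopamine receptor agonist and a bromodomain inhibitor. The 4 genes were chosen by gene name, among 32883 genes in the annotation the files use, and all 4 passed the filter on low values, as did 13999 genes in all. RNA came from primary neurons of the neonatal rat striatum on day 7 in vitro, and libraries were made after depletion of ribosomal RNA. In experiment 1 the groups were SKF plus JQ1, SKF, JQ1 and DMSO for 60 min; in experiment 2 they were SKF plus iBD2, SKF, iBD2 and DMSO for 60 min; in experiment 3 they were those of experiment 1 for 24 h. SKF is the D1 receptor agonist, JQ1 and iBD2 are bromodomain inhibitors, and DMSO is the vehicle, which is labelled in the place of each absent agent. The labels give neither doses nor the order in which the agents were added. The 23 libraries analysed here were 2 in each group and 1 for SKF plus iBD2. Nothing in the labels ties the 2 libraries of a group to separate cultures, so the p-values reflect the spread from library to library alone, which may be technical. These are bulk samples of dissociated cells without their dopamine input, so fewer cells of a type and less RNA per cell cannot be told apart.

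Npas4 is a transcription factor of the bHLH-PAS family that neurons induce on calcium entry and that binds DNA with an ARNT partner. Arc protein acts in the endocytosis of AMPA receptors, Homer1 is a scaffold that ties glutamate receptors to Shank and to IP3 receptors, and Nptx2 is a secreted pentraxin that clusters AMPA receptors at excitatory synapses. In projection neurons of the striatum, D1 receptors raise cyclic AMP, and early genes such as these are induced through kinases and the factors CREB, SRF and MEF2. Bromodomain proteins of the BET family bind acetylated histones and recruit the elongation machinery to promoters.

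In the coordinates of the files, on build Rnor_6.0, Arc (ENSRNOG00000043465) lay on the minus strand of chromosome 7, at chr7:115907097-115910541. Npas4 (ENSRNOG00000020009) lay on the minus strand at chr1:220261008-220265772, Homer1 (ENSRNOG00000047014) on the plus strand at chr2:22909569-23009678, and Nptx2 (ENSRNOG00000001006) on the minus strand at chr12:12013911-12025549. No other annotated gene overlapped any of the 4.

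The promoter windows are shown because the 4 genes are read out together as activity-regulated genes, of which Nptx2 was not called with SKF alone. They are the 250 bases before the RefSeq start on build GRCr8, given for 3 of the 4 genes, written 5′ to 3′ on the strand of the gene, with matches to a searched motif in capitals. The windows are chr1:211716103-211716352 on the minus strand for Npas4, chr2:26278762-26279011 on the plus strand for Homer1 and chr12:15162046-15162295 on the minus strand for Nptx2.
Npas4: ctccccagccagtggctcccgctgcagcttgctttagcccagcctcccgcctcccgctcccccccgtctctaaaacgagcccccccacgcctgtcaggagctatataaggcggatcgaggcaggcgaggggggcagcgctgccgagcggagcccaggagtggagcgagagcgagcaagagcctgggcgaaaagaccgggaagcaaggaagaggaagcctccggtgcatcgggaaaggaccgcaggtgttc
Homer1: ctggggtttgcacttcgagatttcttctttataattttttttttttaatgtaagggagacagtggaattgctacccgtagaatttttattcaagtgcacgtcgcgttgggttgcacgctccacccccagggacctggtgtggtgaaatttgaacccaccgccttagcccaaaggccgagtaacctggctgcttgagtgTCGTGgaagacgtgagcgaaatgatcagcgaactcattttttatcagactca
Nptx2: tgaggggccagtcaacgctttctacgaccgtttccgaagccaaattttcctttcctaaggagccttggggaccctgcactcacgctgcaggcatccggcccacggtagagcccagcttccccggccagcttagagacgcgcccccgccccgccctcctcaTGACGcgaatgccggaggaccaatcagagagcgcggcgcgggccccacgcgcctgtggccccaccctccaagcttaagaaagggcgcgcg
The motifs, searched on both strands, were the cyclic AMP response element TGACGTCA, its core TGACG (which the full element contains), the bHLH-PAS core TCGTG bound by Npas4 with its partner, the CArG box bound by SRF and the MEF2 box. The capitals in Nptx2 mark TGACG at 90 to 86 bases before the start, a core held by 18.2% of the 33469 RefSeq windows of this length. Those in Homer1 mark TCGTG at 52 to 48 bases before the start, held by 14.2% of windows. The Npas4 window held none of these letters. The full element stood in 1.59% of windows, the CArG box in 1.5% and the MEF2 box in 2.96%, and in none of the 3 shown. A match is a description of the sequence and not a site of binding.

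The libraries carried the RNA their label names. All 5 neuronal markers and all 9 markers of striatal projection neurons were above 0.5 FPKM (fragments per kilobase of transcript, scaled to library size) in every group, with summed levels of 1256 to 1703 and 973 to 1394 FPKM. The largest of the 9 were Gad1 (332 to 420 FPKM) and Gad2 (328 to 433 FPKM), which also mark other GABA neurons. Drd1 ran from 4.30 to 17.1 FPKM and Tac1 from 1.68 to 5.76 FPKM, against 23.1 to 34.5 FPKM for Drd2 and 77.7 to 210 FPKM for Penk. Of 6 markers of cortical excitatory neurons, 5 or 6 passed that level but summed to 20.7 to 43.3 FPKM. Astrocyte markers (6 of 6 present) summed to 106 to 427 FPKM, oligodendrocyte-lineage markers (4 or 5 of 6) to 24.2 to 58.4 FPKM, microglial markers (1 to 5 of 5) to 0.356 to 36.4 FPKM, and fibroblast and mural markers (0 or 1 of 5) to 0.435 to 1.84 FPKM. Levels of neuronal and of glial markers differed between experiments. Markers of striatal projection neurons summed to 1297 to 1394 FPKM in experiment 2 and 1102 to 1222 FPKM in experiment 1. Those of cortical excitatory neurons summed to 34.3 to 43.3 FPKM in experiment 2 and 21.8 to 29.9 FPKM in experiment 1. Astrocyte markers summed to 106 to 116 FPKM in experiment 2, 278 to 395 FPKM in experiment 1 and 274 to 427 FPKM in experiment 3. Microglial markers summed to 18.4 to 23.6 FPKM in experiment 2 and 25.7 to 36.4 FPKM in experiment 1. Oligodendrocyte-lineage markers summed to 24.2 to 26.8 FPKM in experiment 2 and 36.5 to 45.6 FPKM in experiment 1. Their part in comparisons between experiments was not tested. Aligned sequence came to 4.36 to 14.9 gigabases per library. At that depth Arc rested on 331 to 11427 reads per library, Npas4 on 687 to 17031, Homer1 on 2865 to 8197 and Nptx2 on 360 to 1517, as estimated from the deposited coverage.

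The question of the first comparison is which of the 4 mRNAs respond to the D1 agonist within 60 min. Arc, Npas4 and Homer1 rose with SKF in both experiments, but on different scales, Arc most and Homer1 least, while Nptx2 did not pass the test in either. Arc stood at 15.3 and 29.6 FPKM with SKF, against 4.70 and 3.998 FPKM with DMSO, in experiment 1. In experiment 2 it stood at 49.7 and 46.5 FPKM with SKF, against 8.43 and 8.55 FPKM with DMSO. In both experiments every SKF library was above every DMSO library. Npas4 stood at 29.2 and 47.1 FPKM with SKF, against 11.4 and 13.3 FPKM with DMSO, in experiment 1. In experiment 2 it stood at 93.1 and 75.8 FPKM with SKF, against 21.8 and 19.4 FPKM with DMSO. The groups did not overlap, and for both genes the lower SKF library of experiment 1 was replicate 5. In that library the astrocyte markers summed to 395 FPKM and the microglial markers to 36.4 FPKM, against 278 and 25.7 FPKM in replicate 6, and the neuronal markers to 1581 against 1667 FPKM. Their part in the result was not tested.

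Homer1 changed by far less, from a level that was already high. That holds for the sum of its annotated transcripts, which do not include its activity-induced short form (below). Homer1 stood at 33.5 and 33.9 FPKM with SKF, against 30.3 and 28.9 FPKM with DMSO, in experiment 1. In experiment 2 it stood at 39.9 and 40.8 FPKM with SKF, against 34.5 and 33.2 FPKM with DMSO. The groups did not overlap in either experiment. Nptx2 stood at 3.78 and 3.91 FPKM with SKF, against 3.14 and 3.19 FPKM with DMSO, in experiment 1, where the groups did not overlap. Separation of groups of 2 libraries was not counted over all genes, so here and below no effect is read from it alone. In experiment 2 Nptx2 stood at 4.75 and 5.55 FPKM with SKF, against 5.25 and 5.16 FPKM with DMSO, and the groups overlapped.

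**Figure D1:**
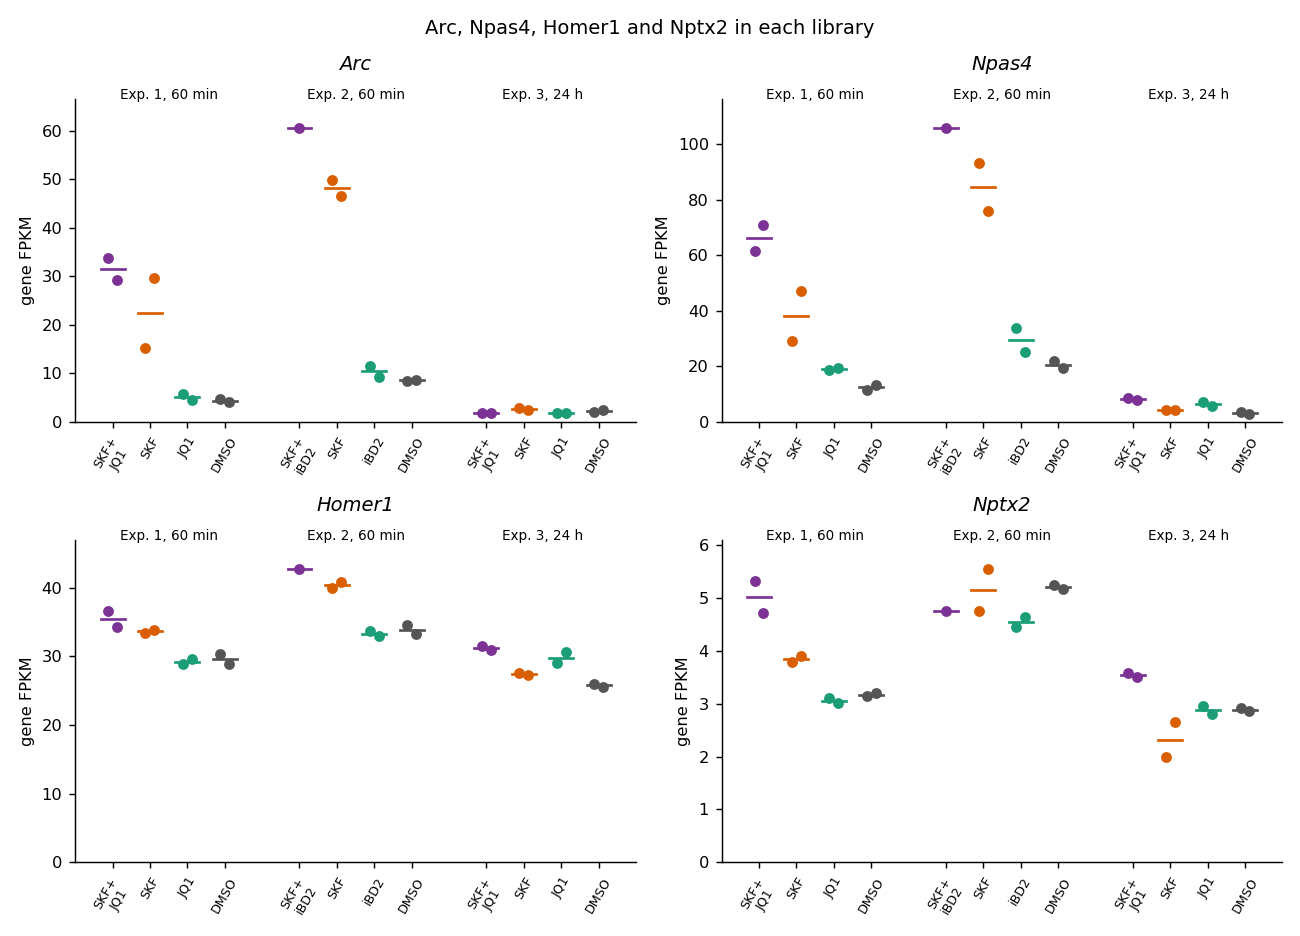
FPKM of Arc, Npas4, Homer1 and Nptx2 (vertical axes, each from 0) in every library, 1 point each, by group within the 3 experiments, with the group mean as a line. Arc and Npas4 stand high in the SKF groups of the 60 min experiments, Homer1 lies between 25.6 and 42.7 FPKM throughout, and Nptx2 between 1.996 and 5.55 FPKM.

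Changes were tested with limma on log2(FPKM + 0.5), a scale that understates changes at low levels, with p-values adjusted by the Benjamini-Hochberg method over all 13999 genes and a threshold of 0.05. Over both experiments Homer1 was 0.26 ± 0.03 higher on the log2 scale with SKF (SE; 1.19-fold; adjusted p = 3.4e-05), Arc 2.34 ± 0.16 and Npas4 1.82 ± 0.14 higher, and Nptx2 differed by 0.15 ± 0.07 (adjusted p = 0.33). So 3 of the 4 genes were called higher, where 3.17% of all genes were. Ordered by log2 change among all genes tested, Arc was the 4th, Npas4 the 13th, Homer1 the 392nd and Nptx2 the 903rd. In experiment 2 alone of the SKF contrasts the values were 2.48 ± 0.23, 2.06 ± 0.20 and 0.30 ± 0.05 for Arc, Npas4 and Homer1 (3 of 4 called higher, against 2.08% of all genes). In experiment 1 they were 2.20 ± 0.23, 1.58 ± 0.20 and 0.21 ± 0.05 (3 of 4, against 1.59%). The Homer1 value of experiment 1 (adjusted p = 0.014) was no longer called when 1 of 3 libraries was omitted. It was 0.21 with DMSO replicate 5 omitted (adjusted p = 0.094), 0.22 with DMSO replicate 6 omitted (adjusted p = 0.075) and 0.17 with SKF replicate 6 omitted (adjusted p = 0.29). Fitted on the 8 libraries of experiment 1 alone, Arc, Npas4 and Homer1 kept their log2 changes but reached adjusted p = 0.091, 0.089 and 0.17 in limma. The difference between the experiments was called by limma for 0 of the 4 genes, with 0 below 0.05 before adjustment and 0 called by voom on estimated reads, and for 0% of all genes.

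**Figure D2:**
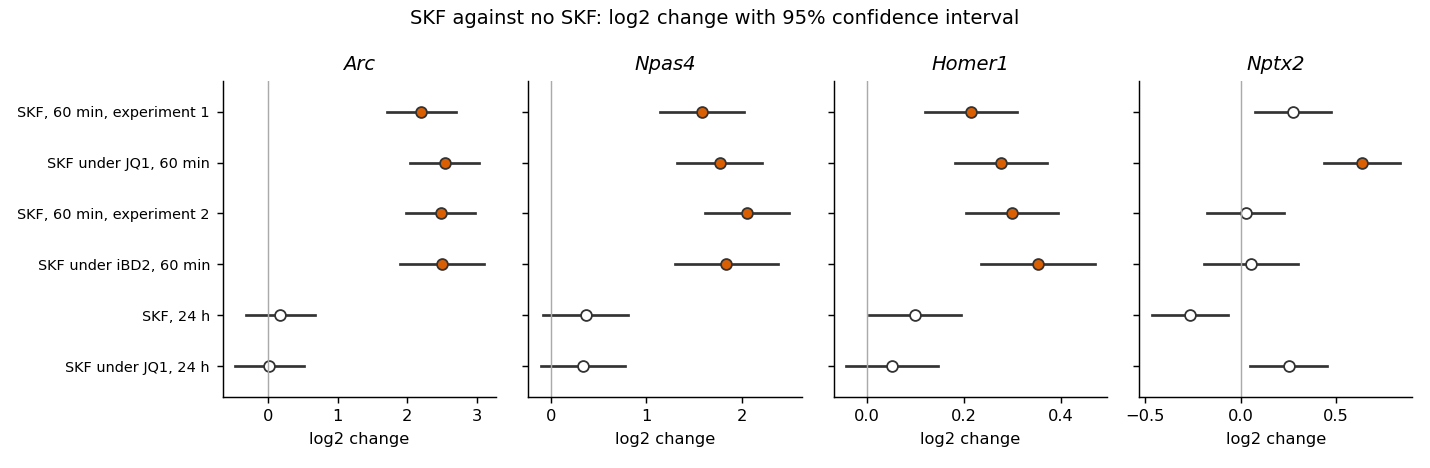
Log2 change with SKF (horizontal axis, with 95% confidence intervals) for each gene in 6 comparisons, filled where the adjusted p was under 0.05. Arc, Npas4 and Homer1 lie to the right of 0 and are filled in the 4 comparisons at 60 min, Nptx2 is filled only under JQ1 at 60 min, and no point is filled at 24 h.

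The crossed design asks whether the response to SKF holds while a bromodomain is inhibited. It was present for Arc, Npas4 and Homer1 under either inhibitor, and under JQ1 Nptx2 rose too. Arc stood at 33.7 and 29.1 FPKM with SKF plus JQ1, against 5.67 and 4.44 FPKM with JQ1, and at 60.5 FPKM with SKF plus iBD2, against 11.5 and 9.21 FPKM with iBD2. Npas4 stood at 61.6 and 70.8 FPKM with SKF plus JQ1, against 18.7 and 19.5 FPKM with JQ1, and at 105.7 FPKM with SKF plus iBD2, against 33.6 and 25.2 FPKM with iBD2. In both experiments every library with SKF and inhibitor was above every library with the inhibitor alone, for both genes. Homer1 stood at 36.6 and 34.3 FPKM with SKF plus JQ1, against 28.9 and 29.6 FPKM with JQ1. With SKF plus iBD2 it stood at 42.7 FPKM, against 33.6 and 33.0 FPKM with iBD2, and again the groups did not overlap. Nptx2 stood at 5.32 and 4.71 FPKM with SKF plus JQ1, against 3.11 and 3.01 FPKM with JQ1. With SKF plus iBD2 it stood at 4.75 FPKM, against 4.46 and 4.64 FPKM with iBD2. The SKF plus JQ1 libraries of Nptx2 were the highest 2 of experiment 1, with no overlap with any other group.

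Under JQ1, all 4 genes were called higher with SKF (1.19% of all genes were), Arc by 2.53 ± 0.23, Npas4 by 1.77 ± 0.20, Homer1 by 0.28 ± 0.05 (adjusted p = 0.0018) and Nptx2 by 0.63 ± 0.09 on the log2 scale (adjusted p = 0.0007). Fitted on experiment 1 alone, limma called only Nptx2 of the 4 (adjusted p = 0.0049, against 0.071 for Arc, 0.076 for Npas4 and 0.062 for Homer1). The Homer1 call was also lost without JQ1 replicate 5 (0.25, adjusted p = 0.052) or SKF plus JQ1 replicate 5 (0.24, adjusted p = 0.058). Under iBD2, 3 of 4 genes were called higher (1.31% of all genes were), Arc by 2.49 ± 0.28, Npas4 by 1.84 ± 0.25 and Homer1 by 0.35 ± 0.06 (adjusted p = 0.0012). Those values rest on the lone SKF plus iBD2 library, which the model takes to vary like the other groups. Whether the SKF effect itself differed with the inhibitor was tested as an interaction. For JQ1 at 60 min limma called 0 of 4 genes and 0% of all genes, with 1 of the 4 at an unadjusted p under 0.05 and 0 called by voom. That gene was Nptx2, whose SKF effect was larger under JQ1 by 0.36 (95% interval 0.08 to 0.64, unadjusted p = 0.015). For Homer1 the interaction was 0.06 (95% interval -0.07 to 0.20), for Arc 0.33 (-0.36 to 1.03) and for Npas4 0.19 (-0.44 to 0.81). The intervals for Arc and Npas4 are wide and do not show that JQ1 left their response to SKF unchanged. For iBD2 limma called 0 of 4 (0.0143% of all genes), 0 were under an unadjusted p of 0.05 and voom called 0. The intervals ran from -0.77 to 0.79 for Arc, -0.91 to 0.48 for Npas4, -0.10 to 0.20 for Homer1 and -0.29 to 0.34 for Nptx2.

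The inhibitors alone were then compared with DMSO at 60 min. No member passed the test with either, and Npas4 had the largest value of the 4 with both. Npas4 stood at 18.7 and 19.5 FPKM with JQ1, against 11.4 and 13.3 FPKM with DMSO. With iBD2 it stood at 33.6 and 25.2 FPKM, against 21.8 and 19.4 FPKM with DMSO. The groups did not overlap in either experiment, from which alone no effect is read, since such separation was not counted over all genes. The log2 differences were 0.64 ± 0.20 for JQ1 (adjusted p = 0.12) and 0.54 ± 0.20 for iBD2 (adjusted p = 0.68). Arc differed by 0.22 ± 0.23 with JQ1 and 0.31 ± 0.23 with iBD2. Homer1 stood at 28.9 and 29.6 FPKM with JQ1, against 30.3 and 28.9 FPKM with DMSO, and at 33.6 and 33.0 FPKM with iBD2, against 34.5 and 33.2 FPKM with DMSO. Nptx2 stood at 3.11 and 3.01 FPKM with JQ1, against 3.14 and 3.19 FPKM with DMSO, and at 4.46 and 4.64 FPKM with iBD2, against 5.25 and 5.16 FPKM with DMSO. For Homer1 the 95% intervals of the log2 difference were -0.08 to 0.11 with JQ1 and -0.07 to 0.12 with iBD2. Limma called 0 of 4 genes with JQ1 (4.34% of all genes) and 0 of 4 with iBD2 (0.186%), with 1 of 4 in each below 0.05 before adjustment and 0 called by voom. Npas4 with JQ1 passed without either SKF library of experiment 1 (adjusted p = 0.014 for each), samples which enter that test only through the shared estimate of spread.

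The effects of JQ1 and iBD2 at 60 min were set side by side, each against the DMSO libraries of its own experiment, without known doses. JQ1 minus iBD2 was -0.09 for Arc (95% interval -0.79 to 0.61), 0.10 for Npas4 (-0.52 to 0.73), -0.01 for Homer1 (-0.14 to 0.13) and 0.12 for Nptx2 (-0.16 to 0.40). Limma called 0 of 4 (0.921% of all genes), with 0 below 0.05 before adjustment and 0 called by voom. The intervals for Arc and Npas4 are wide and do not show that the compounds act alike.

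With an inhibitor added to SKF at 60 min, Nptx2 and Npas4 were called higher for JQ1 in the fit on all libraries, and none of the 4 for iBD2. The 2 inhibitors in the presence of SKF were not tested against each other. Nptx2 stood at 5.32 and 4.71 FPKM with SKF plus JQ1, against 3.78 and 3.91 FPKM with SKF, a log2 change of 0.34 ± 0.09 (adjusted p = 0.036). Both SKF plus JQ1 libraries were above both SKF libraries, yet the call was lost when any of those 4 libraries was left out (0.27 to 0.41, adjusted p = 0.060 to 0.35). Of the 4 genes 2 were called higher (2.63% of all genes were), the other being Npas4, at 0.82 ± 0.20. The Npas4 value was not called at 0.45 with SKF replicate 5 omitted (adjusted p = 0.19), at 0.94 with replicate 5 of SKF plus JQ1 omitted (adjusted p = 0.071) or at 0.71 with its replicate 6 omitted (adjusted p = 0.17). Neither call was made by limma on experiment 1 alone (adjusted p = 0.050 for Nptx2 and 0.20 for Npas4). Homer1 differed by 0.07 ± 0.05 (adjusted p = 0.46). Arc differed by 0.55 ± 0.23 (adjusted p = 0.22), by 1.05 (adjusted p = 0.00037) without SKF replicate 6 and by 0.047 (adjusted p = 0.91) without SKF replicate 5. With iBD2, limma called 0 of 4 (0.0214% of all genes), 0 were under an unadjusted p of 0.05 and voom called 0. The differences were 0.32 ± 0.28 for Arc, 0.32 ± 0.25 for Npas4, 0.07 ± 0.06 for Homer1 and -0.11 ± 0.12 for Nptx2, from the lone SKF plus iBD2 library.

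**Figure D3:**
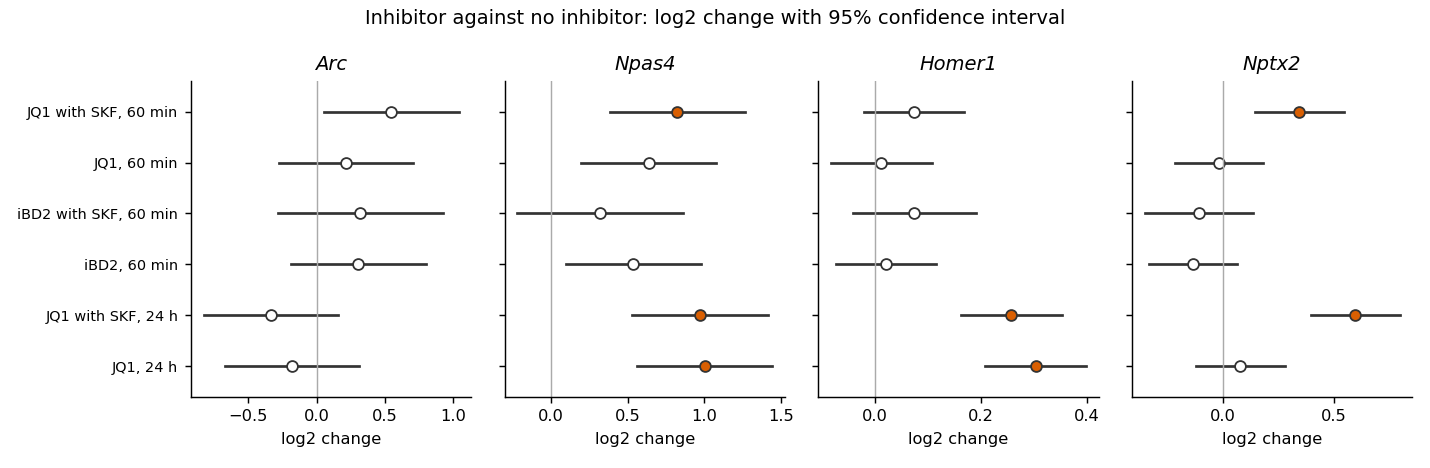
Log2 change with an inhibitor (horizontal axis, with 95% confidence intervals), alone or in the presence of SKF, filled where the adjusted p was under 0.05. At 24 h Npas4 and Homer1 are filled both without and with SKF, Nptx2 only with SKF, and no Arc point is filled.

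With SKF for 24 h no member passed the test. How often groups of 2 libraries stood apart over all genes was not counted, so no effect is read from separation alone. Arc stood at 2.79 and 2.32 FPKM with SKF, against 1.97 and 2.48 FPKM with DMSO, with 1 SKF library between the DMSO libraries. Npas4 stood at 4.03 and 4.25 FPKM with SKF, against 3.48 and 2.80 FPKM with DMSO. Homer1 stood at 27.6 and 27.3 FPKM with SKF, against 25.9 and 25.6 FPKM with DMSO. Both genes were higher in each SKF library than in each DMSO library, by 0.36 ± 0.20 (adjusted p = 0.64) and 0.10 ± 0.05 (adjusted p = 0.49) on the log2 scale. Nptx2 stood at 1.996 and 2.65 FPKM with SKF, against 2.91 and 2.86 FPKM with DMSO, both SKF libraries being lower, by -0.27 ± 0.09 (adjusted p = 0.27, and -0.43 to -0.098 with 1 library left out). Limma called 0 of 4 genes (1.49% of all genes), with 2 below 0.05 before adjustment and 0 called by voom. Microglial markers, 4 of 5 of which fell, summed to 17.02 and 12.3 FPKM with SKF, against 35.8 and 28.9 FPKM with DMSO, and their part in these values was not tested. The effect of SKF at 24 h minus that at 60 min was -2.17 ± 0.28 for Arc and -1.45 ± 0.25 for Npas4 (2 of 4 called lower, where 1.97% of all genes were). It was -0.16 ± 0.06 for Homer1 (adjusted p = 0.20) and -0.42 ± 0.12 for Nptx2 (adjusted p = 0.078). The Nptx2 difference was -0.58 (adjusted p = 0.010) without SKF replicate 6 of experiment 3 and -0.25 (adjusted p = 0.44) without its replicate 5. The Npas4 difference was not called by voom (-1.36, adjusted p = 0.12). The 24 h and 60 min libraries are from different experiments, so time and experiment cannot be told apart in it.

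Relative to the median gene, JQ1 for 24 h raised Npas4 and Homer1, in the absence and in the presence of SKF, and Nptx2 in its presence. The tests use FPKM divided by a size factor, which was 0.951 and 0.942 for JQ1 and 1.037 and 0.991 for DMSO. The log2 change of Homer1 is therefore larger than its FPKM as deposited, printed here, would give. With most genes called, these relative levels do not show the amount of mRNA per cell. Npas4 stood at 6.91 and 5.77 FPKM with JQ1, against 3.48 and 2.80 FPKM with DMSO. Homer1 stood at 29.1 and 30.6 FPKM with JQ1, against 25.9 and 25.6 FPKM with DMSO. The groups did not overlap for either gene. Npas4 was higher by 1.003 ± 0.20 on the log2 scale (adjusted p = 0.00094) and Homer1 by 0.30 ± 0.05 (adjusted p = 2.4e-05). With 2 of 4 called higher, the background is large, since 28.0% of all genes were called higher and 56.3% in either direction. Arc stood at 1.71 and 1.82 FPKM with JQ1, against 1.97 and 2.48 FPKM with DMSO, a difference of -0.18 ± 0.23 (adjusted p = 0.52). Nptx2 stood at 2.95 and 2.80 FPKM with JQ1, against 2.91 and 2.86 FPKM with DMSO, and the groups overlapped.

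In the presence of SKF, 24 h of JQ1 gave 3 of 4 genes called higher (28.3% of all genes were). Npas4 stood at 8.66 and 7.71 FPKM with SKF plus JQ1, against 4.03 and 4.25 FPKM with SKF, higher by 0.97 ± 0.20 (adjusted p = 0.0011). Homer1 stood at 31.5 and 31.0 FPKM with SKF plus JQ1, against 27.6 and 27.3 FPKM with SKF, higher by 0.26 ± 0.05 (adjusted p = 0.00012). Nptx2 stood at 3.58 and 3.51 FPKM with SKF plus JQ1, against 1.996 and 2.65 FPKM with SKF, higher by 0.60 ± 0.09 (adjusted p = 4.7e-05). The 5 calls at 24 h held when each library was left out in turn. Arc stood at 1.80 and 1.84 FPKM with SKF plus JQ1, against 2.79 and 2.32 FPKM with SKF, a difference of -0.34 ± 0.23 (adjusted p = 0.23). Arc passed when experiment 3 was fitted alone (adjusted p = 0.045) and without either SKF library of experiment 1 (adjusted p = 0.028 for each). Across the 24 h libraries other cell markers moved as well. All 5 microglial markers fell with JQ1, to summed levels of 5.35 and 3.56 FPKM, against 35.8 and 28.9 FPKM with DMSO, and with SKF plus JQ1 to 1.11 and 0.356 FPKM, against 17.02 and 12.3 FPKM with SKF. Neuronal markers, of which 2 of 5 fell in each comparison, summed to 1347 and 1402 FPKM with JQ1, against 1582 and 1703 FPKM with DMSO, and to 1256 and 1372 FPKM with SKF plus JQ1, against 1585 and 1597 FPKM with SKF. Markers of striatal projection neurons summed to 1035 and 1123 FPKM with JQ1, against 1068 and 1150 FPKM with DMSO. They summed to 973 and 1102 FPKM with SKF plus JQ1, against 1150 and 1193 FPKM with SKF. Astrocyte markers, of which 2 of 6 fell, summed to 328 and 274 FPKM with JQ1, against 427 and 336 FPKM with DMSO. With SKF plus JQ1 their sums were 425 and 309 FPKM, against 346 and 324 FPKM with SKF, and overlapped. Oligodendrocyte-lineage markers, of which 2 of 5 rose and 1 fell, summed to 58.4 and 45.4 FPKM with SKF plus JQ1, against 36.7 and 35.5 FPKM with SKF. The part of any of these in the changes of the 4 genes was not tested.

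Under JQ1, SKF for 24 h gave values of 0.02 for Arc, 0.33 for Npas4, 0.05 for Homer1 and 0.25 ± 0.09 for Nptx2 (adjusted p = 0.27). Limma called 0 of 4 (1.01% of all genes), with 1 below 0.05 before adjustment and 0 called by voom. The interaction of SKF with JQ1 at 24 h was 0.52 for Nptx2 (95% interval 0.24 to 0.80, unadjusted p = 0.0012, adjusted p = 0.39). Limma called 0 of 4 (0.0429% of all genes), with 1 under an unadjusted p of 0.05 and 0 by voom. For Nptx2 the interaction was thus above 0 at both times and past the threshold at neither. Set against its 60 min effect, the 24 h effect of JQ1 was larger for Homer1, by 0.29 ± 0.06 (adjusted p = 0.0019), 1 of 4 called higher where 17.1% of all genes were. It differed by -0.40 ± 0.32 for Arc, 0.36 ± 0.29 for Npas4 and 0.10 ± 0.13 for Nptx2.

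The genes differed in how wide a range of levels they covered. On the per-length FPKM scale, group means of Arc ran from 1.77 FPKM (JQ1, 24 h) to 60.5 FPKM (SKF plus iBD2, 1 library), which is the 22.7th to the 92.1st percentile of the genes tested. Its order was SKF plus iBD2, SKF of experiment 2 (48.1 ± 2.3, SD, n = 2), SKF plus JQ1 (31.4 ± 3.2), SKF of experiment 1 (22.4 ± 10.2), iBD2 (10.4 ± 1.6), DMSO of experiment 2 (8.49 ± 0.08), JQ1 (5.05 ± 0.87), DMSO of experiment 1 (4.35 ± 0.49) and then the 24 h groups, from 2.56 to 1.77. Its SKF plus JQ1 and SKF groups of experiment 1 overlapped, as did JQ1 and DMSO there, SKF and DMSO at 24 h, and SKF plus JQ1 and JQ1 at 24 h. Npas4 ran from 3.14 ± 0.48 FPKM (DMSO, 24 h) to 105.7 FPKM (SKF plus iBD2), from the 29.5th to the 96.2nd percentile. Its order over the 60 min groups was that of Arc, with overlap between SKF of experiment 1 and iBD2 and between DMSO of experiment 2 and JQ1. At 24 h its groups ran, from high to low, SKF plus JQ1 (8.19 ± 0.68), JQ1 (6.34 ± 0.81), SKF (4.14 ± 0.16) and DMSO, with no overlap between neighbours. Homer1 ran only from 25.8 ± 0.2 FPKM (DMSO, 24 h) to 42.7 FPKM (SKF plus iBD2), always between the 81.6th and the 88.4th percentile. In the middle of its order DMSO of experiment 2 (33.9 ± 0.9), SKF of experiment 1 (33.7 ± 0.3) and iBD2 (33.3 ± 0.5) overlapped, and the SKF libraries of experiment 1 lay within the range of the DMSO libraries of experiment 2. Nptx2 ran from 2.32 ± 0.46 FPKM (SKF, 24 h) to 5.21 ± 0.07 FPKM (DMSO of experiment 2), and the libraries of its highest 4 groups all lay within 4.71 to 5.55 FPKM. Levels set across experiments include differences between the experiments.

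Homer1 is known for an activity-induced short form, Homer1a, that ends within an intron and lacks the domain by which long Homer proteins multimerize. The annotation the files use lists 3 Homer1 transcripts, which end at 23009678, 23009522 and 23009481 of chromosome 2. None ends early, so the short form was not measured on its own. Its reads in exons shared with a listed transcript would count toward that transcript and the gene. The values below therefore cannot tell a change of the short form from one of the long forms. ENSRNOT00000073871 (9 exons, 2122 nucleotides) starts at 22909569, and ENSRNOT00000071804 (9 exons, 1101 nucleotides) starts further in, at 22950018. ENSRNOT00000078266 (5 exons, 807 nucleotides) never passed 0.088 FPKM and was not tested. ENSRNOT00000073871 stood at 30.3 and 29.8 FPKM with SKF, against 26.2 and 25.0 FPKM with DMSO, in experiment 1, and at 35.7 and 37.1 FPKM with SKF, against 29.4 and 29.3 FPKM with DMSO, in experiment 2. ENSRNOT00000071804 stood at 3.18 and 4.09 FPKM with SKF, against 4.07 and 3.83 FPKM with DMSO, in experiment 1, and at 4.21 and 3.67 FPKM with SKF, against 5.06 and 3.92 FPKM with DMSO, in experiment 2. So the value given to ENSRNOT00000073871 was higher in every SKF library than in the DMSO libraries of its experiment, and that of ENSRNOT00000071804 overlapped. Over both experiments the log2 changes were 0.30 ± 0.03 for ENSRNOT00000073871 (limma over 17733 transcripts, adjusted p = 1.9e-05) and -0.10 ± 0.09 for ENSRNOT00000071804 (adjusted p = 0.76), where 2.59% of transcripts were called in either direction. The difference between them was 0.41, with an adjusted p of 0.049 in limma's diffSplice test, at the edge of the threshold. It was lost with a pseudocount of 0.1 (adjusted p = 0.061) and with most single libraries left out.

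With 24 h of JQ1 both transcripts rose relative to the median gene, the tested changes being after division by the size factor and the FPKM as deposited. ENSRNOT00000071804 stood at 4.91 and 5.12 FPKM with JQ1, against 3.56 and 2.87 FPKM with DMSO, higher by 0.67 ± 0.13 (limma, adjusted p = 0.0013). ENSRNOT00000073871 stood at 24.1 and 25.5 FPKM with JQ1, against 22.3 and 22.7 FPKM with DMSO, higher by 0.23 ± 0.04 (limma, adjusted p = 0.00053). Of all transcripts 41.0% were called in this comparison. The difference between the 2 transcripts, 0.44 in favour of the later start, had an adjusted p of 0.097. Arc has 2 transcripts that share a 3′ end and differ at the 5′ end by a short stretch, so their split by StringTie is uncertain. ENSRNOT00000076998 took 42.3 to 80.9% of Arc FPKM over the libraries, with replicates as far apart as 75.9 and 58.1% in the SKF group of experiment 1. Nptx2 has a second transcript of 772 nucleotides that never passed 0.293 FPKM, and Npas4 has 1 transcript.

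**Figure D4:**
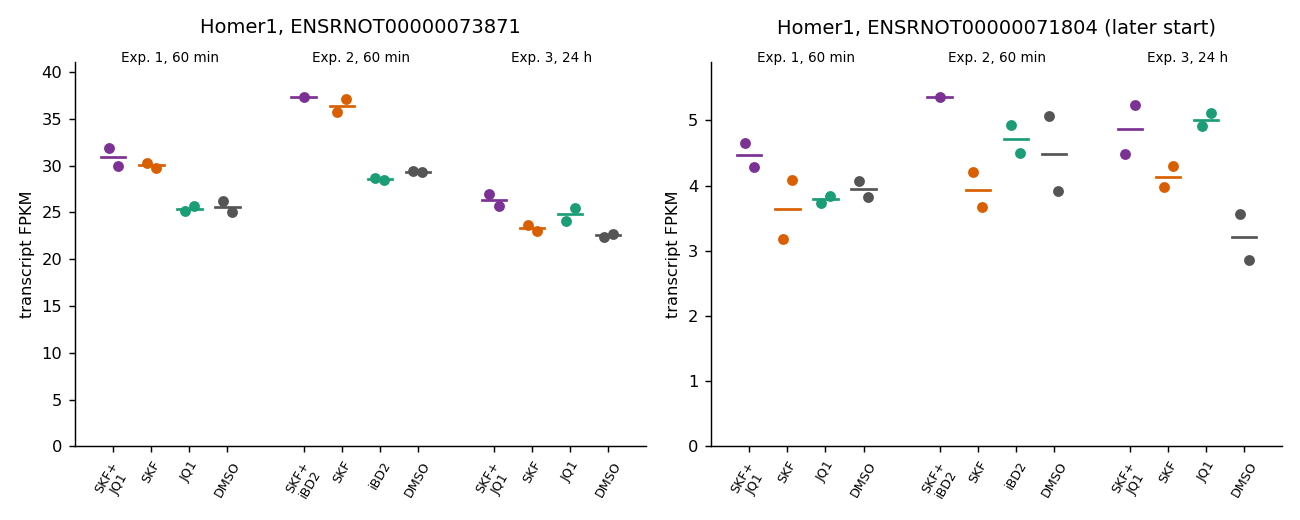
FPKM of ENSRNOT00000073871 and of the later-starting ENSRNOT00000071804 of Homer1 (vertical axes from 0) in every library, by group, with the group mean as a line. The first lies between 22.3 and 37.3 FPKM and stands higher in the SKF groups at 60 min, and the second lies between 2.87 and 5.36 FPKM.

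Among themselves and with other genes, patterns over the 23 libraries were compared after the mean of each experiment was subtracted. These correlations describe libraries that share experiments and controls, and carry no test. Npas4 and Homer1 had a Pearson r of 0.92, Arc and Npas4 0.87, and Arc and Homer1 0.74. Nptx2 had the lowest, 0.65 with Homer1, 0.63 with Npas4 and 0.48 with Arc. Of 12145 genes with a mean of at least 1 FPKM, those most like Arc were Fosl1 and Egr3 (0.98 each), Junb and Egr4 (0.97 each), all of which encode transcription factors of the AP-1 or Egr families. Those most like Npas4 were Fos (0.99), Gadd45g, Irf2bp2 and Ppp1r15a (0.97 each). Most like Homer1 were Nr4a3, an orphan nuclear receptor gene, and Nfil3 (0.95 each), then Fos and Mn1 (0.94 each). For Nptx2 the nearest were Cdr2 (0.83), Bmt2 (0.80), Pcna (0.79), which encodes the sliding clamp of DNA replication, and Akirin1 (0.77).

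Genes that work with the 4 were counted from fixed lists, some genes standing in more than 1. Over all genes 3.17% rose and 0.800% fell with SKF at 60 min. Of 14 genes around Arc (the kinase Camk2a and the endocytic dynamin Dnm2 among them) limma called 0, with 0 below 0.05 before adjustment and 0 called by voom, and their median log2 change was 0.03. Of 12 Homer family members and binding partners the counts were the same, with a median of 0.01, beside a median of 0.01 over all genes. Of 12 partners and targets of Npas4, 5 rose and 0 fell (median 0.14). They were Csrnp1 (1.57 ± 0.07), a nuclear protein gene, Rgs2 (0.64 ± 0.08), a regulator of G-protein signalling, Plk2 (0.44 ± 0.05), a kinase, Gem (0.64 ± 0.11), a small GTPase, and Bdnf (0.60 ± 0.12), a neurotrophin. Nptx2 is itself in that list.

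Among 7 pentraxins and AMPA receptor partners 1 rose and 0 fell (median 0.03). It was Nptx1, the neuronal pentraxin related to Nptx2, which stood at 12.9 and 15.5 FPKM with SKF, against 4.86 and 5.01 FPKM with DMSO, in experiment 1. In experiment 2 it stood at 20.9 and 19.6 FPKM with SKF, against 4.84 and 4.87 FPKM with DMSO. The groups were far apart in both, and the log2 change was 1.73 ± 0.07 (limma, adjusted p = 9.3e-12), where that of Nptx2 was 0.15. Of 14 other activity-induced effectors 9 rose and 0 fell (median 0.42), led by Dusp1 (2.08 ± 0.07), a MAP kinase phosphatase, Vgf (1.40 ± 0.09), a secreted neuropeptide precursor, and Rasd1 (0.66 ± 0.08), a Ras-like GTPase. Of 11 tested factors that act on early gene promoters 3 rose and 0 fell (median 0.06), which were Egr3 (1.70 ± 0.13), Egr1 (1.48 ± 0.17) and Srf (0.46 ± 0.06). At 24 h of SKF only Vgf of all these lists was called by limma (1.24 ± 0.13, higher). The unadjusted p was under 0.05 for 1 gene each around Arc, Npas4, Homer and the pentraxins and for 2 each of the effectors and factors, and voom called 1 pentraxin-list gene and 2 effectors.

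With JQ1 at 60 min, where 1.81% of all genes rose and 2.52% fell, limma called 0 of the genes around Arc, Homer and the pentraxins, with 2, 0 and 0 below 0.05 before adjustment and 0 called by voom. In the Npas4 list 1 of 12 fell, Inhba (-0.95 ± 0.13), a subunit of activin. Of the effectors 3 of 14 fell, Ptgs2 (-1.002 ± 0.10), an inducible cyclooxygenase, Rasd1 (-0.53 ± 0.12) and Inhba again. Of the promoter factors 1 of 11 rose, Egr1 (1.05 ± 0.24).

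With JQ1 for 24 h 28.0% of all genes rose and 28.3% fell, with a median log2 change of 0.01, and the counts in the lists are read against those shares. The size factor centres each library on its median gene. The median near 0 and the even shares therefore cannot show whether JQ1 had a net direction on mRNA. Around Homer1, which rose, 3 of 12 genes rose and 7 fell (median -0.24). Among the genes that fell were the family members Homer2 (-0.53 ± 0.06) and Homer3, the scaffolds Shank1 and Shank2 and the channel Trpc1. The ones that rose were Dnm3 (0.57 ± 0.06), a dynamin, the IP3 receptor Itpr1 and Agap2. Around Arc 4 of 14 rose and 2 fell (median 0.01), among them Rnf216 (0.22 ± 0.05), a ubiquitin ligase, and Cacng2 (-0.79 ± 0.05), the AMPA receptor auxiliary subunit stargazin. In the Npas4 list 3 of 12 rose and 3 fell (median 0.04), with Bdnf at 0.85 ± 0.18, the dimer partner Arnt2 at -0.42 ± 0.05 and Inhba at -0.62 ± 0.13. In the pentraxin list 2 of 7 rose and 3 fell (median 0.04), with the pentraxin receptor Nptxr at 0.56 ± 0.07 and the AMPA receptor subunits Gria3 at -0.99 ± 0.08 and Gria1 at -0.80 ± 0.05. Of the effectors 4 of 14 rose and 4 fell (median 0.01), with Vgf at 1.37 ± 0.13, Lrrtm2, a synaptic adhesion gene, at -0.59 ± 0.06 and Ptgs2 at -0.56 ± 0.10. Of the promoter factors 3 of 11 rose and 1 fell (median -0.01), with Elk1 at 0.26 ± 0.05, Creb1 at 0.35 ± 0.07 and Mef2a at -0.32 ± 0.05.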

How the data were processed

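Each of 23 libraries had 1 deposited table of 41078 transcripts with FPKM and per-base coverage as computed by the authors. Trim Galore, FastQC, STAR, StringTie and DESeq2 and build Rnor_6.0 are named per the submitters' processing notes, without versions; whether counting used strand is not stated in those notes or the labels. The 24th labelled sample, SKF plus iBD2 replicate 2, is not analysed here.

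FPKM was summed over transcripts by gene ID, divided by a median-ratio size factor (0.942 to 1.06) and tested as log2(FPKM + 0.5) by limma (version 3.58.1, R 4.3.3) with its trend and robust settings. Genes needed 0.5 FPKM in at least 2 libraries and a transcript of at least 200 nucleotides. The model had 1 mean for each of 12 groups, 11 residual degrees of freedom and 20 two-sided contrasts. Transcripts were fitted alike and compared with diffSplice. Estimated reads for voom came from coverage times length, divided by the read length of 101 bases seen in the values and by 2 reads per fragment. The read numbers printed for the 4 genes are without the division by 2. Printed FPKM are as deposited. The steps were tested on simulated data.

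The members and lists were chosen with earlier results of these data known. Beside the 4 genes, the text gives at most the 4 list members of lowest p with SKF at 60 min, at most the 3 of lowest p with JQ1 at 60 min and at 24 h, and the 4 genes most alike in pattern; Bdnf and other called list genes outside that rule were named after their values were seen. Some list genes that the rule takes are not reported here. Alternatives were FPKM without the size factor, pseudocounts of 0.1 and 1, no filter, a replicate block, each experiment alone, voom, and each library left out. Promoter windows are from RefSeq, build GRCr8.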

Additional observations from a re-analysis of the deposited data

Results flagged for a closer look

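The effect of SKF differed between times, by a test of the difference, for Arc (24 h minus 60 min, -2.17 on the log2 scale, limma adjusted p = 0.00048) and for Npas4 (-1.45, adjusted p = 0.0055, but -1.36, adjusted p = 0.12, by voom). The effect of JQ1 differed between times for Homer1 (24 h minus 60 min, 0.29, limma adjusted p = 0.0019). In each case the times are from different experiments, so time and experiment cannot be told apart.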

How the results depend on the processing

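Of 540 gene-level values of the 4 genes under the alternatives other than omissions, 518 kept their direction and their side of the threshold, 10 lost a call, 2 gained one and 10 changed sign, none of the last having been called. Over 1828 such values with 1 library left out, 1786 kept both, 12 lost and 6 gained a call, and 24 changed sign, none of them called. Leaving out a library that a contrast does not use leaves its log2 change as it was, and an uncalled value cannot lose a call. Part of that agreement is therefore fixed in advance. Counts of genes called in the lists moved by over 1.5 times in 10 of 714 cases and those over all genes in 72 of 592; the cause was not tested. With each experiment fitted alone the calls among the 4 genes were 0 for SKF in experiment 1, 0 for JQ1 with SKF at 60 min and 1 for SKF under JQ1 at 60 min, from fewer libraries. Without the filter, JQ1 with SKF at 60 min gave 1 call (Nptx2 at 0.34, adjusted p = 0.086, from more genes tested). Voom gave 1 call for SKF at 24 h minus 60 min. The difference between the Homer1 transcripts with SKF at 60 min lost its call with a pseudocount of 0.1 (0 calls) and in 15 of 23 omissions (ENSRNOT00000073871 minus the other at 0.32 to 0.49, adjusted p = 0.010 to 0.16). Same-numbered libraries deviated together (r above 0.1) in only 1 of 6, 1 of 3 and 3 of 6 pairs of groups in experiments 1, 2 and 3, so the numbers were not taken to pair the samples. With the replicate number as a block JQ1 at 60 min gave 1 call (Npas4 0.64, adjusted p = 0.0057) and the Arc interaction of SKF with iBD2 was -0.051. With 1 library left out, calls ran from 0 to 1 for JQ1 at 60 min, 0 to 2 for JQ1 with SKF at 60 min, and 0 to 4 for the Homer1 transcripts, 4 without DMSO replicate 2 of experiment 2.

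Sign changes were of uncalled values. Without the size factor Nptx2 with SKF in experiment 2 was -0.019, Homer1 with JQ1 at 60 min -0.016, Homer1 with iBD2 -0.024, Nptx2 with JQ1 at 24 h -0.0057, and Homer1 for JQ1 minus iBD2 0.0072. With voom they were -0.037 for Nptx2 with SKF in experiment 2, -0.016 for Homer1 with JQ1 at 60 min, -0.014 for Homer1 with iBD2 and 0.0049 for the Homer1 interaction at 24 h. With 1 library left out, Nptx2 ran from -0.070 to 0.12 with SKF in experiment 2, -0.063 to 0.028 with JQ1 at 60 min and -0.068 to 0.12 for its iBD2 interaction. Homer1 ran from -0.016 to 0.038 with JQ1 at 60 min, -0.0077 to 0.049 with iBD2 and -0.037 to 0.019 for JQ1 minus iBD2. Arc ran from -0.022 to 0.064 for SKF under JQ1 at 24 h, -0.17 to 0.84, -0.13 to 0.16 and -0.32 to 0.0080 for its interactions with JQ1 at 60 min, iBD2 and JQ1 at 24 h, -0.22 to 0.78 for SKF in experiment 2 minus experiment 1 and -0.24 to 0.062 for JQ1 minus iBD2. Npas4 ran from -0.19 to 0.56 and -0.14 to 0.085 for its interactions with JQ1 at 60 min and 24 h and -0.092 to 0.29 for JQ1 minus iBD2. ENSRNOT00000073871 minus the other Homer1 transcript ran from -0.27 to 0.055 with iBD2 and -0.16 to 0.10 for JQ1 with SKF at 24 h, and ENSRNOT00000071804 from -0.055 to 0.27 and -0.10 to 0.16.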
